A study of Homo sapiens with 16 samples.

Results

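The core p65 regions are the stretches of the genome that were bound in all 4 conditions of a ChIP-Seq experiment in colon cancer cells, and there were 572 of them among 6238 regions bound in at least 1 condition. They were chosen on the deposited signal itself. Chromosomes 1 to 22 and X were divided into bins of 200 bp. A bin was taken as bound in a condition when at least 2 of its 3 ChIP libraries had a mean signal of 2 or more, a 4-fold excess over the input of that condition and a 4-fold excess over the surrounding 10 kb. Bound bins within 200 bp were joined over the conditions, and a core region held a bound bin of each condition. Its level is the mean signal of its highest bin, which is the 200 bp with the highest mean over the 12 ChIP libraries. Signal is the authors' scaled tag density, with no natural unit and no read count behind it.

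p65, encoded by RELA, is the subunit of NFκB that carries a strong activation domain. In resting cells it is held in the cytoplasm by IκB proteins, and TNFα leads to their degradation, so that dimers of p65 enter the nucleus and bind κB sites, short sequences that begin with GG and end with CC. Among the genes they act on are those of their own inhibitors, of other NFκB subunits and of chemokines, and in the colon NFκB is known as a link between inflammation and tumour growth. Estrogen receptor β, ERβ, is a nuclear receptor encoded by ESR2 that has been studied for effects on this response.

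HT29 and SW480 are established human colorectal adenocarcinoma lines. Each line carried a stable mock construct or a stable ERβ construct, which gave HT29 mock, HT29 ERβ, SW480 mock and SW480 ERβ cells with 3 ChIP libraries and 1 input library each. Cells of all 4 conditions had received TNFα at 30 ng/ml for 30 minutes and, by the study's methods, had been kept without added estradiol in medium with stripped serum, so that neither an untreated cell nor an estrogen-treated one was measured here. The promoter of the ERβ construct is not given in the sources used here, and the inputs of the ERβ conditions were, by the study's methods, taken from another series. The study describes the 3 libraries of a condition as biological replicates and as triplicate experiments, and the p-values below measure the spread between these libraries. Whether a lower signal came from fewer cells with bound p65 or from less p65 per cell cannot be told apart.

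Read against its own introns, coding sequence of ESR2 had a 1.09- to 1.61-fold density in the 6 mock ChIP libraries. In the 6 ERβ libraries it had a 4.47- to 8.12-fold density in HT29 and a 2.64- to 3.26-fold density in SW480, so each library matched its label. In the inputs the ratio was 1.25 and 1.57 for mock and 2.32 and 1.93 for ERβ cells of HT29 and SW480. Library totals are fixed by the scaling, and the depth of a library could therefore not be read from the tracks. The median signal over the core regions differed within conditions, at 9.19, 4.55 and 4.94 in HT29 mock, 7.72, 3.90 and 3.72 in HT29 ERβ, 4.23, 4.96 and 4.85 in SW480 mock and 5.72, 10.8 and 9.36 in SW480 ERβ. Replicate 1 of both HT29 conditions stood above the other two of its condition, and replicate 1 of SW480 ERβ stood below. Counts of calls are given with and without the libraries that moved them most. In the 4 inputs the median at the same bins was 0.460 to 0.650.

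**Figure D1:**
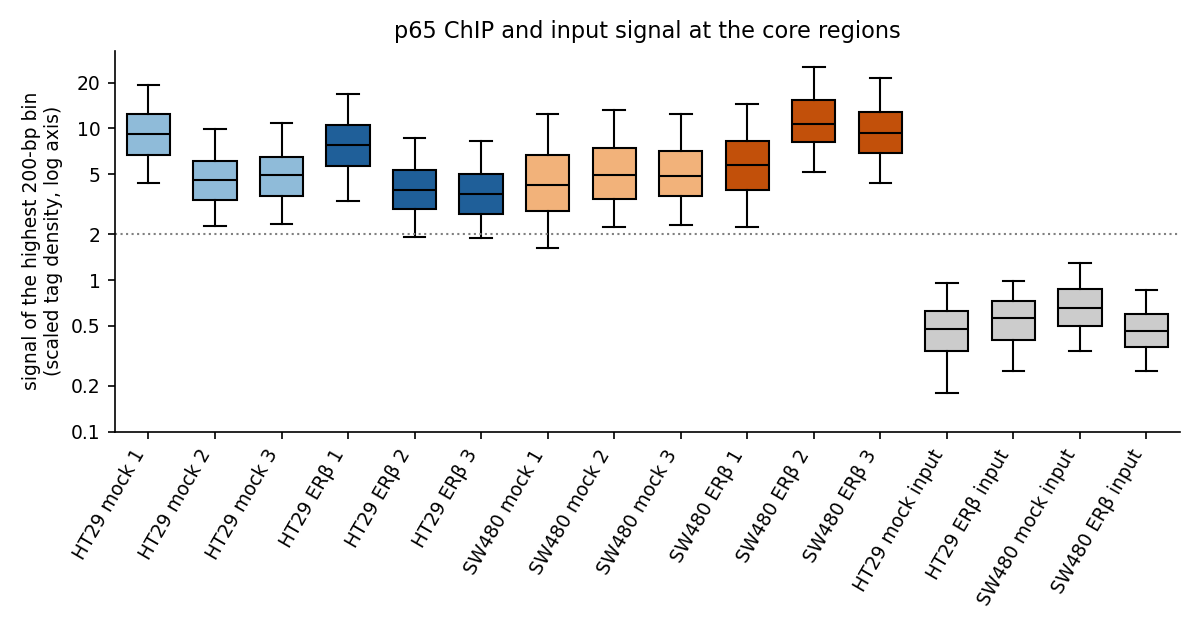
Signal of the highest 200-bp bin of the 572 core regions in each library (log axis, scaled tag density), with boxes from the lower to the upper quartile, a line at the median and whiskers to the 5th and 95th percentiles, and a dotted line at the minimum of 2. Medians lie between 3.72 and 10.8 in the ChIP libraries and between 0.460 and 0.650 in the inputs (grey), and replicate 1 stands high in both HT29 conditions and low in SW480 ERβ.

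The sequences under the strongest core promoters are shown first, since most core regions held a κB site close to the highest signal. Each line gives 30 bases of GRCh38, 5′ to 3′, with 1 exact match to the 10-base κB consensus in capitals. They belong to the 8 promoter regions among the 12 core regions of highest mean log2 signal, and the region is named for the nearest start of a protein-coding gene.
NFKB2 chr10:102394462-102394491 (plus strand): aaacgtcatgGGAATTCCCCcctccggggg
NFKBIA chr14:35403953-35403982 (plus strand): caggcgcccaGGGACTTTCCgcccccctcc
ATG16L2 chr11:72814321-72814350 (plus strand): gggacaagccGGGGATTCCCcgccgccgcc
BIRC3 chr11:102317339-102317368 (plus strand): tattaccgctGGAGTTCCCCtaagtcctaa
TNFAIP3 chr6:137867194-137867223 (plus strand): aaagtcccgtGGAAATCCCCgggcctacaa
ARHGAP31 chr3:119323272-119323301 (plus strand): cccagaagcgGGGAAACCCCagggacagcc
SDC4 chr20:45348502-45348531 (plus strand): caccccgcccGGAATTCCCCagtggaagcg
MITD1 chr2:99181078-99181107 (plus strand): tctctttctaGGGACTTTCCtgagtgggag

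The next lines show the same for promoters of NFκB subunits and inhibitors and of the CXC chemokines, since these are the gene groups whose promoters were most often core regions. CXCL2 and CXCL3 carry the same 10 bases, GGGAAATTCC, and CXCL1 carries their reverse complement, GGAATTTCCC.
NFKB1 chr4:102501300-102501329 (plus strand): cgacgtcagtGGGAATTTCCagccaggaag
REL chr2:60881518-60881547 (plus strand): gtcagccgcgGGAAATTCCCctcccgccag
RELB chr19:45001323-45001352 (plus strand): gtgacgcgtgGGGGTTTTCCcgttccccag
TNIP1 chr5:151081057-151081086 (minus strand): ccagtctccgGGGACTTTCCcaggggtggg
CYLD chr16:50741887-50741916 (minus strand): gccggccgaaGGGACTTTCCgctctgtcaa
NFKBIZ chr3:101827757-101827786 (plus strand): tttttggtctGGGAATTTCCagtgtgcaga
CXCL1 chr4:73869305-73869334 (plus strand): tggaactccgGGAATTTCCCtggcccgggg
CXCL2 chr4:74099253-74099282 (plus strand): tcccgggccaGGGAAATTCCcggagctcca
CXCL3 chr4:74038748-74038777 (plus strand): ggccgggccaGGGAAATTCCcggagctcca

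Outside promoters, whole highest bins of 200 bases are shown for 5 of the 8 regions of highest signal, which differ in the motifs they hold. Capitals mark every exact κB match and, in the CRTAC1 bin, both AP-1 matches (TGAGTCA) as well. The SHH and SLC28A1 bins hold 2 κB matches each, those of SHH overlapping, and the JUNB bin holds 4. The SUSD1 bin, at rank 5 by signal, holds no exact match to either motif.
SHH chr7:155815401-155815600 (plus strand): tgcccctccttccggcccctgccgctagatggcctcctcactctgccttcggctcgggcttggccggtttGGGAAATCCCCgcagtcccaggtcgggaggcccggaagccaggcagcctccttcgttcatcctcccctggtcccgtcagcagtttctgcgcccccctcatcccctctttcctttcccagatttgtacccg
SLC28A1 chr15:84930201-84930400 (plus strand): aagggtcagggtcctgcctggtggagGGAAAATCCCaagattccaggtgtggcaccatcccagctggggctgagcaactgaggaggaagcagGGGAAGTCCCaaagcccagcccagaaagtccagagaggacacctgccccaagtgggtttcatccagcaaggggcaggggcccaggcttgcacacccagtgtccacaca
JUNB chr19:12793601-12793800 (plus strand): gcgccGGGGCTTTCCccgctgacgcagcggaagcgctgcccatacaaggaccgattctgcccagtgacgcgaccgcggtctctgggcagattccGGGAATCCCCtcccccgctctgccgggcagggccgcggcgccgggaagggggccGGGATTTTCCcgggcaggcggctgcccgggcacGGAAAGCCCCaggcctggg
CRTAC1 chr10:97882601-97882800 (plus strand): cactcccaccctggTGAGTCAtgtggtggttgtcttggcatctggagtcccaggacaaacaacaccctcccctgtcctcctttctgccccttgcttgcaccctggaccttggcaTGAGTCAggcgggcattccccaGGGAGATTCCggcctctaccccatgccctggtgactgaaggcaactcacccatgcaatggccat
SUSD1 chr9:112119601-112119800 (plus strand): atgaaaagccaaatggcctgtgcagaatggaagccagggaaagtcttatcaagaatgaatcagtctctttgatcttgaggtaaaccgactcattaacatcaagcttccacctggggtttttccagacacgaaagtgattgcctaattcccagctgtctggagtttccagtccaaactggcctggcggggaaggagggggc

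The core regions were 10.6% of the regions bound in SW480 ERβ (5379), 23.1% of those in HT29 mock (2473), 33.9% of those in HT29 ERβ (1687) and 56.5% of those in SW480 mock (1013). SW480 mock thus had the fewest. These numbers moved with single libraries. In SW480 ERβ 2830 and 2950 regions were bound without replicate 2 and replicate 3. In HT29 mock 1596 were bound without replicate 1, and in HT29 ERβ 956 without replicate 1. There were 541, 542, 529 and 450 core regions in these cases. With a library left out, each remaining library of that condition had to pass, which is stricter than the rule of the full counts. Under that rule SW480 mock had 704 to 873 regions. With all 3 libraries required in each condition it had 632, against 951 in HT29 ERβ. With the input of the other ERβ status of the same line there were 714 core regions, and 1436 regions were bound in SW480 mock, still the fewest of the 4 conditions. A further 673 regions were bound in 3 conditions, and 547 of these lacked only SW480 mock. Another 1252 regions were bound in 2 conditions and 3741 in 1. The ChIP signal of ALDH5A1, CDH23 and PTK2 lay just inside the minimum, with a second-highest library of 2.0046, 2.00925 and 2.01275 in their weakest condition. IL13RA1, TMTC2 and ERO1A lay just outside, at 1.9972, 1.9961 and 1.99575, all in SW480 mock. These values come from the rule and are given as a description.

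A core region had a median length of 400 bp, and the 572 together covered 257000 bp. They held 0.0907 to 0.243% of the density of a ChIP track and 0.0135 to 0.0196% of that of an input. The median of the mean signal over the 12 ChIP libraries was 6.25, compared with 3.77, 2.68 and 1.61 in regions bound in 3, 2 and 1 conditions, an order that the rule itself favours. The highest bins had a median GC content of 58.5% against 55.5% over all bound regions, and 3 CpG per 100 bp against 2.

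By place, 233 of the core regions (40.7%, 95% exact binomial interval 36.7 to 44.9%) had their highest bin in a promoter, from 1 kb upstream to 100 bp downstream of a start site in GENCODE 44. A further 29 (5.07%) were in exons, 195 (34.1%) in introns and 115 (20.1%) between genes. The promoter share was 37.0% (33.3 to 40.8%) of regions bound in 3 conditions, 30.0% in 2 and 26.1% in 1. In the 547 regions that lacked only SW480 mock it was 37.8% (33.8 to 42.1%). The intervals of these 547 and of all regions bound in 3 conditions overlap that of the core regions. The promoter share was 16.2% in the 345 regions bound in both HT29 conditions alone and 14.3% in the 308 bound in both SW480 conditions alone. The intervals count regions as independent and cover counting error only. Position was not used to choose the regions.

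A κB consensus was the most common sequence that the rule had not used. An exact match was present in the highest bin of 428 core regions (74.8%, interval 71.1 to 78.3%). Windows of the same length 1 kb to either side held one in 5.33% of cases (of 1144), and all 14555311 bins of the genome in 2.91%. The share was 68.6% (64.99 to 72.1%) in regions bound in 3 conditions, 61.3% (58.5 to 64.0%) in 2 and 50.2% in 1. The interval of the core regions lies above that of the regions bound in 2 and overlaps that of the regions bound in 3. The share depended on the window. In the central 100 bp of the bin it was 43.2% for core regions against 2.53% of their flanks, and 40.7%, 34.8% and 28.7% for regions bound in 3, 2 and 1 conditions.

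κB matches that overlapped were joined into 496 sites. There were 366 core regions with 1 site (64.0%), 59 with 2, and 1 each with 3, 4 and 5. Among 68 gaps between neighbouring sites the median was 41.5 bp, and 17 gaps were of 20 bp or less. The matches took 55 forms when a sequence and its reverse complement were counted as 1. GGGACTTTCC, the form in the NFKBIA, TNIP1, CYLD and MITD1 windows above, was the most frequent and stood in 55 core regions (9.62%), compared with 3.46% of the other bound regions and 0.0401% of flanks. GGGGAATTCC, seen in the NFKB2 and SDC4 windows on the other strand, was present in 48 (8.39%, others 4.11%). GGGAATTTCC was present in 47 (8.22%, others 5.58%) and GGGAAATTCC in 42 (7.34%). Of the 144 core regions with no exact match, 114 (79.2%) held a sequence with 1 mismatch, as did 41.0% of the 288 flanks of the same regions.

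The κB site stood at the highest point of signal. In 477 core regions with a match in the bin or 100 bp to either side, the distance from the highest signal to the nearest match had a median of 13 bp, and 76.3% lay within 25 bp and 93.5% within 50 bp. In the other bound regions the median was 20 bp and 59.5% lay within 25 bp. AP-1 matches were farther off, at a median of 38.5 bp in 141 core regions, with 33.3% within 25 bp. Averaged over the 366 regions with 1 site, the signal was highest within 10 bp of the site in each of the 12 ChIP libraries, at 5.04 to 16.6, which was 8.37 to 20.8 times the signal 800 to 1000 bp away. The width at the middle of that height was 200 to 320 bp. The inputs were nearly level, with a highest value of 0.511 to 0.741 and a ratio of 1.17 to 1.32. An excess over the surroundings and over the input was part of the rule, and the sites averaged lay in the highest bin, so these heights and ratios are a description.

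**Figure D2:**
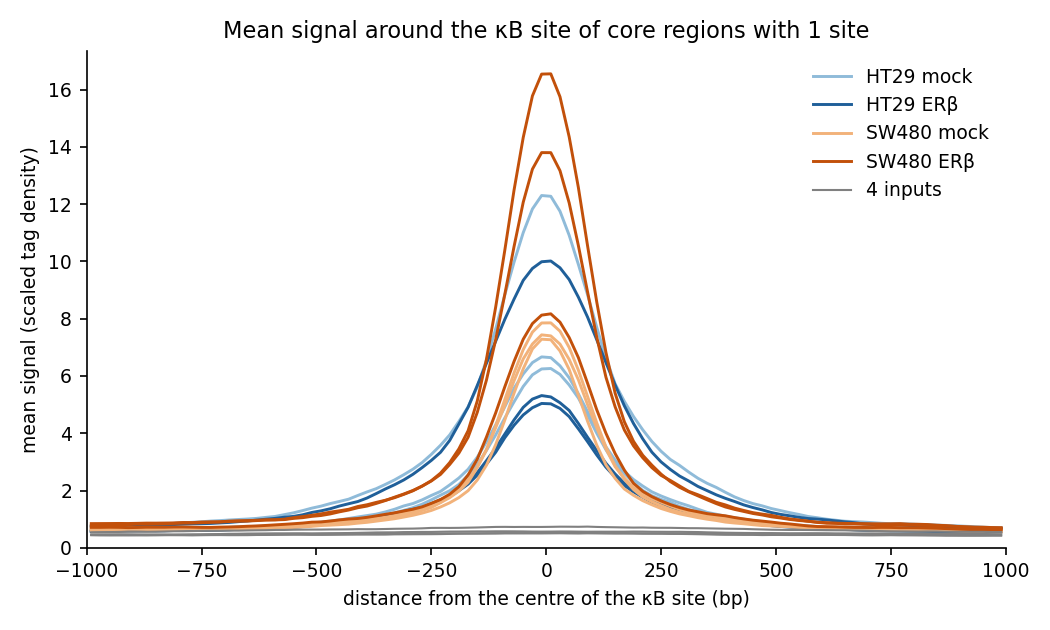
Mean signal (scaled tag density) by distance in bp from the centre of the κB site, over the 366 core regions with 1 site, with 1 line per ChIP library coloured by condition and grey lines for the 4 inputs. Each ChIP library is highest within 10 bp of the site, at 5.04 to 16.6, while the inputs stay between 0.511 and 0.741 at their highest.

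Other motifs were less frequent. The AP-1 sequence, TGACTCA or TGAGTCA, was present in 97 core regions (17.0%, interval 13.97 to 20.3%), against 3.50% of flanks and 2.99% of genome bins, and in 13.4%, 10.9% and 11.7% of regions bound in 3, 2 and 1 conditions. It was 15.9% in the regions bound in both SW480 conditions alone, within the interval of the core regions. AP-1 is a family of dimers of FOS and JUN proteins that also responds to TNFα. GGGCGG, read by SP and KLF factors, stood in 183 (32.0%, flanks 11.7%). FOXA (TGTTTAC) and RUNX motifs were present in 7.34% and 8.04% of core regions against 3.32% and 5.68% of flanks. In regions bound in 3, 2 and 1 conditions FOXA stood in 4.61%, 5.91% and 4.46%, and RUNX in 4.75%, 10.1% and 13.4%. In the regions bound in both HT29 conditions alone they stood in 8.99% and 5.51%, and in both SW480 conditions alone in 8.12% and 24.0%. RUNX was thus less frequent in core regions than over all bound regions (11.3%). The CCAAT box was at the level of the flanks, with 20.1% against 19.6%, and TATAAA was rarer than in the flanks, with 4.72% against 11.1%. All motifs were searched on both strands, and a match is a description of letters, not of a factor.

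Promoter regions and distal regions differed in their sequences. The 233 in promoters held a κB match in 81.5%, GGGCGG in 53.6%, the CRE core TGACGT in 10.3% and AP-1 in 10.3% of cases. The 339 outside held κB in 70.2%, GGGCGG in 17.1%, AP-1 in 21.5% and FOXA in 9.44%. For comparison, 34683 RefSeq promoters of 300 bases on GRCh38 held κB in 9.41%, GGGCGG in 45.0%, TGACGT in 7.95% and AP-1 in 4.94%. The core bins in promoters, of 200 bp, are shorter than these windows, and their shares of all 4 motifs were higher. Signal differed little by sequence, with a median over the 12 libraries of 5.77 with no κB site, 6.38 with 1 and 6.69 with 2 or more. It was 6.35 in promoters and 6.13 outside, and 6.18 with AP-1 and 6.25 without.

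**Figure D3:**
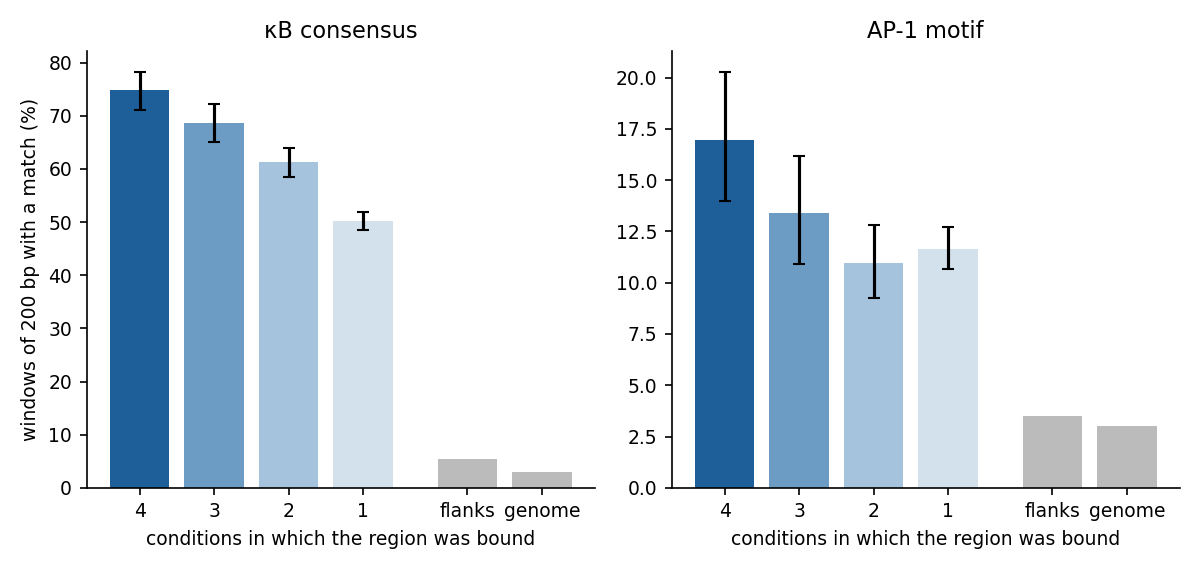
Share of 200-bp windows with an exact match to the κB consensus (left) and to the AP-1 motif (right), in %, for regions bound in 4, 3, 2 and 1 conditions with 95% exact binomial intervals, and in grey for flanks 1 kb from the core regions and for all genome bins. The κB share is 74.8% in core regions and 50.2% in regions bound in 1 condition, against 5.33% of flanks, and the AP-1 share is 17.0% against 3.50%.

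NFKB2, NFKBIA, BIRC3 and TNFAIP3, all textbook NFκB targets, were among the 12 core regions of highest signal, and of the other 8 only SDC4 stood at the promoter of a gene in the lists of NFκB genes described below. The highest mean log2 signal was at NFKB2, the gene of the p100 precursor and the p52 subunit, with its highest bin at -2 bp from a start site (chr10:102394201-102394800). Its signal was 31.2, 16.6 and 19.1 in HT29 mock, 28.2, 14.3 and 16.8 in HT29 ERβ, 12.5, 15.7 and 14.8 in SW480 mock and 13.1, 34.0 and 22.9 in SW480 ERβ. The 3 SW480 mock libraries lay below the 3 HT29 mock libraries at this promoter, as in 29.5% of all bound regions, but the line difference was not called (-0.56, adjusted p = 0.161), and within each line the ERβ and mock libraries overlapped. A weaker core region lay at a second NFKB2 start site (chr10:102395601-102395800, rank 133 by signal).

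NFKBIA encodes IκBα, the inhibitor that is degraded after TNFα and then made anew. Its promoter region (chr14:35403601-35404200) was at rank 3, with 22.8, 10.7 and 13.2 in HT29 mock, 24.3, 10.4 and 10.4 in HT29 ERβ, 24.1, 21.3 and 14.7 in SW480 mock and 20.6, 36.4 and 25.6 in SW480 ERβ. Libraries of different conditions overlapped here as well, and the 2 highest values were both of SW480 ERβ. TNFAIP3, which encodes the deubiquitinase A20, a negative regulator of the pathway, was at rank 8 (chr6:137866801-137867600). Its signal was 20.1, 9.88 and 12.1 in HT29 mock, 19.7, 9.51 and 9.11 in HT29 ERβ, 24.95, 24.4 and 19.5 in SW480 mock and 16.1, 30.7 and 23.9 in SW480 ERβ. BIRC3, the gene of the survival factor cIAP2, was at rank 6 (chr11:102317001-102317600), with 22.8, 12.6 and 14.2, then 23.5, 10.2 and 10.3, then 20.5, 19.6 and 15.1, and then 19.5, 33.9 and 22.2 in the same order of conditions. At TNFAIP3 and BIRC3 the SW480 libraries and replicate 1 of each HT29 condition lay above the other HT29 libraries, by little at BIRC3 (15.1 against 14.2). In limma the difference of SW480 mock from HT29 mock was called at neither. It was 0.72 (adjusted p = 0.061) at TNFAIP3 and 0.18 (adjusted p = 0.699) at BIRC3.

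The second rank belonged to a region on chromosome 8 in an intron, with MYC as nearest protein-coding start at a distance of 439156 bp (chr8:128176601-128177200). Its signal was 18.9, 10.5 and 11.1 in HT29 mock, 19.8, 9.02 and 10.5 in HT29 ERβ, 24.0, 21.8 and 20.9 in SW480 mock and 27.5, 41.2 and 36.1 in SW480 ERβ. All 6 SW480 libraries were above all 6 HT29 libraries. Its inputs were also high, at 1.71 and 1.44 in HT29 mock and ERβ and 3.37 and 2.62 in SW480 mock and ERβ. The rest of the 12 highest were the promoters of ATG16L2, ARHGAP31, SDC4 and MITD1, introns at SUSD1 and SLC28A1, and a region between genes at -3038 bp from the start of SHH (upstream), which encodes the ligand sonic hedgehog. Among the highest outside promoters, after these came PLA2G6, JUNB, PTPN1 and CRTAC1. The JUNB region, with 4 κB matches (above), lay 2215 bp downstream of the start of JUNB, which encodes an AP-1 subunit. Its signal was 16.9, 9.33 and 9.55 in HT29 mock, 14.8, 5.72 and 6.26 in HT29 ERβ, 19.0, 18.1 and 22.2 in SW480 mock and 21.2, 37.8 and 28.9 in SW480 ERβ, again with all SW480 libraries above all HT29 libraries. The nearest start site names a region and does not show which gene it acts on.

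**Figure D4:**
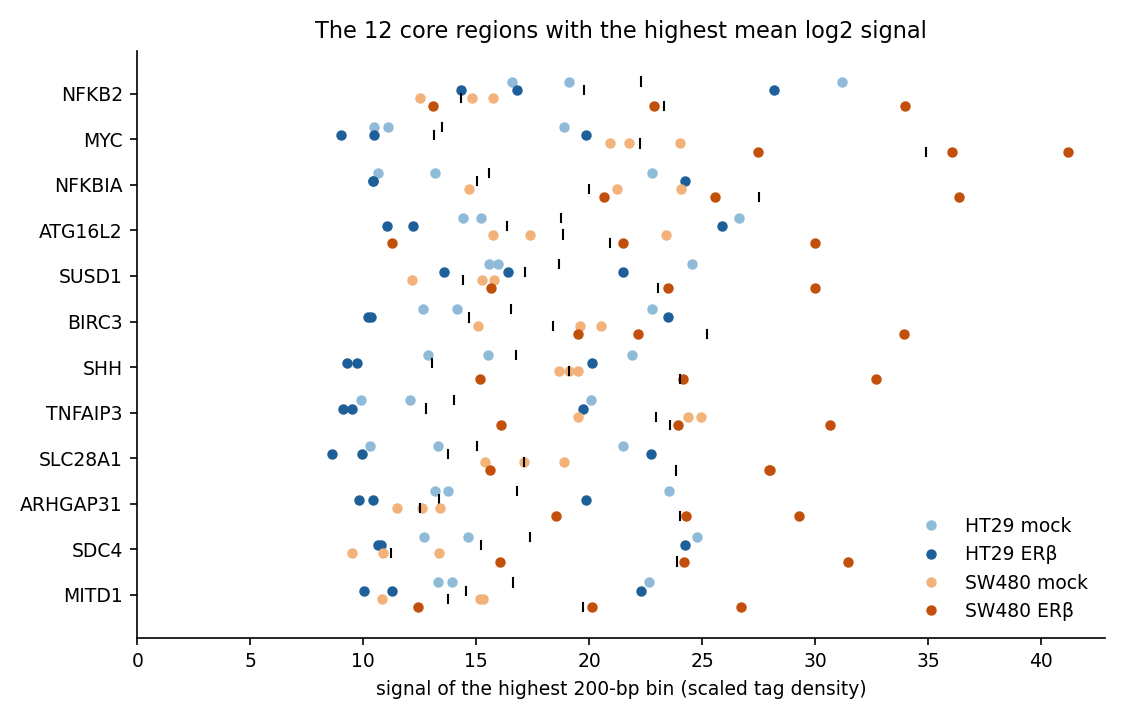
Signal of the highest 200-bp bin (scaled tag density) of the 12 core regions with the highest mean log2 signal, with 1 point per ChIP library coloured by condition and a black bar at the mean of each condition. At NFKB2 the SW480 mock libraries, from 12.5 to 15.7, lie below the HT29 mock libraries, from 16.6 to 31.2, in a difference that was not called (adjusted p = 0.161), while ERβ and mock overlap within each line, and at the region named for MYC the SW480 libraries, from 20.9 to 41.2, lie above the HT29 libraries, from 9.02 to 19.8.

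Core regions were counted at the promoters of genes in lists of NFκB targets and functions, against 188 of all 19618 protein-coding genes (0.958%). All 5 genes of Rel and NFκB subunits had a core region in a promoter, and so had 8 of 12 inhibitors and feedback genes. The inhibitors were NFKBIA, NFKBIB, NFKBIE, NFKBIZ and BCL3 of the IκB family, and TNFAIP3, TNIP1 and CYLD, which act on ubiquitin chains. NFKBID had a core region near its start (from 50 kb upstream to 2 kb downstream), and TNIP2, TNIP3 and OTULIN had neither. The region of NFKBIB stands between its start and that of SIRT2. The counts were lower elsewhere, with 5 of 13 chemokines (CXCL1, CXCL2, CXCL3, CXCL8 and CCL20), 5 of 19 AP-1 and other transcription factors (IRF1, ELF3, CREB1 and KLF10 among them) and 3 of 15 adhesion molecules and receptors (ICAM1, CD83 and IFNGR2). Survival genes had 2 of 12 (BIRC3 and TRAF3), kinases and adaptors 2 of 16 (MAP3K8 and RIPK2), cytokines 1 of 16 (IL32) and enzymes and matrix genes 1 of 13 (SDC4). No promoter of 10 housekeeping genes or of 11 circadian clock genes was a core region, although CRY2, NR1D2 and DBP had one near, which is 3 of 11 clock genes against 3.70% of all protein-coding genes. A further 2 clock symbols of 13, ARNTL and ARNTL2, were not found in the annotation. They are other names of BMAL1 and BMAL2, which were found and counted. These lists were written with results of the same data known, and many of their genes are textbook targets, so the counts are a description.

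These 32 genes had 35 core regions at their promoters, 32 of them with a κB site, at a median rank of 96 of 572. By list the median rank was 46.5 for inhibitors, 104 for subunits, 122 for chemokines and 79 for transcription factors. RELA itself ranked 411, with no exact κB match in its highest bin.

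Some genes had several core regions. There were 25 groups in which each core region lay within 50 kb of the next, with 55 members (9.62%). The largest held 5 regions over 58800 bp at CEACAM16 and BCL3 (chr19:44694801-44753600), with κB matches in 3 of them, at the BCL3 promoter, at -1207 bp and at 2180 bp from a BCL3 start. The last was the highest of the 5, at rank 21. Groups of 3 stood at PHLDA1 and at ZNRD2, MAP3K11 and RELA (chr11:65570001-65663400). NFKB2, NFKBIA, TNFAIP3, BBC3, IRF1, ELF3 and FOXO1 were among those with 2. Neighbouring regions in a group share chromatin and are not independent.

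The next question was whether ERβ changed p65 binding at the core regions. In HT29 no region was called. The median difference of ERβ from mock on the log2(signal + 1) scale was -0.23 over the core regions and -0.15 over all 6238 regions, and 48 of 572 core regions had a positive difference. When each library was centred on its median over all regions, these became -0.047 and 0.026, with 228 core regions positive. With limma and Benjamini-Hochberg adjustment 0 core regions were higher and 0 lower (background 0% and 0% of all regions), and 0 passed at an unadjusted p under 0.05, compared with 117 of all regions. The smallest adjusted p of a core region was 0.999, and with the replicate number as block it was 0.0636, also with 0 called. With the block 175 core regions were lower at an unadjusted p under 0.05, and 1114 of the 6238 regions passed that limit in either direction. No core region was called without replicate 1 of HT29 mock or of HT29 ERβ either. Within pairs of the same number the median difference was -0.22, -0.17 and -0.30, and 470, 416 and 489 of the 572 were lower in ERβ. Without HT29 mock replicate 1 the median turned to 0.048, and without HT29 ERβ replicate 1 it was -0.49. All ERβ libraries were below all mock libraries in 7 core regions and above in 0, where 3.88% and 1.01% of all bound regions did so. Nothing is read from these shares either, since the same signal chose the regions.

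In SW480 the signal at core regions was higher with ERβ, and so it was at bound regions in general. The median difference was 0.65 over the core regions and 0.71 over all regions, and 567 of 572 core regions were positive. limma called 215 core regions higher (37.6%) and 0 lower, against a background of 53.2% and 0.016% of all regions, and 289 core regions had an unadjusted p under 0.05, as had 3883 of all 6238 regions. The same signal chose the regions, so nothing is read from this share. All ERβ libraries lay above all mock libraries in 239 core regions (41.8%) and below in 0, where 53.5% and 0.0802% of all bound regions did so. By number the median difference was 0.26, 0.96 and 0.76. Replicate 1 of SW480 ERβ was the weakest, and without it 523 core regions were called higher (86.9% of all regions), while 56 to 82 were without SW480 mock replicate 1 or 2 or SW480 ERβ replicate 2 or 3 (24.2% to 28.4% of all regions). With the replicate number as block, 350 core regions were called higher and 0 lower (background 68.4% higher).

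The direction depended on the scale of the libraries. When each library was centred on its median over all regions, the median difference of the core regions went from 0.65 to -0.13, and 4 core regions were higher and 22 lower, against a background of 4.26% and 4.81%. The 4 were PPARA, EIF5, ROCK2 and OSBPL5. The 22 included the promoters of TNFAIP3 (-0.78, adjusted p = 0.00497), ATG16L2, CYLD and PTPN2, whose uncentred differences were at most 0.12. The 6238 regions that set the median were chosen on the same signal, with 5379 bound in SW480 ERβ and 1013 in SW480 mock. A centred difference is relative to that choice, and the 22 are not shown to have lost p65 signal. Centring with the replicate block, chosen after the data were seen, gave 28 higher and 70 lower, against 458 and 636 of all 6238 regions. Whether the libraries differed as a whole in p65 binding or in the efficiency of the ChIP cannot be told apart in scaled tracks.

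The 5 core regions with the largest difference in SW480 lay in an exon, in introns, in a promoter and between genes, and PPARA and LRRC32 among them held no exact κB match. The region named for PPARA (exon, chr22:46105601-46106200) had 1.61, 3.76 and 6.998 in SW480 mock and 10.2, 14.6 and 14.7 in SW480 ERβ, with 7.63, 4.66 and 4.53 in HT29 mock and 8.50, 3.40 and 2.97 in HT29 ERβ. The SW480 conditions did not overlap, and the HT29 conditions did. The fitted difference was 1.59 (SE 0.33, adjusted p = 3.67e-05), and 0.81 after centring (adjusted p = 0.0347). EIF5 (1.58, adjusted p = 5.31e-05), ROCK2 (1.497, adjusted p = 7.51e-05), LRRC32 (1.44, adjusted p = 0.000134) and OSBPL5 (1.44, adjusted p = 0.000171) followed. LRRC32 did not hold after centring (0.66, adjusted p = 0.0634). At OSBPL5 (intron, chr11:3095801-3096400) the signal was 2.39, 3.54 and 3.49 in SW480 mock and 9.37, 9.90 and 11.2 in SW480 ERβ, which do not overlap, against 4.197, 3.40 and 4.26 in HT29 mock and 3.22, 2.38 and 2.57 in HT29 ERβ. There the HT29 ERβ libraries were all below the HT29 mock libraries, the opposite of SW480.

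Among the list genes, 12 of the 35 promoter regions were called higher in SW480 ERβ and 0 lower, which is 34.3% against 53.2% of all regions, with a median of 0.62 (0.71 over all regions tested). Without SW480 ERβ replicate 1 there were 30, and without SW480 mock replicate 1 there were 3, against 86.9% and 24.2% of all regions. Chemokines had a median of 1.01, with 3 of 5 called, beside 53.2% of all regions. The regions of CXCL1, CXCL2, CXCL3 and CXCL8 lie near each other on chromosome 4 (73740201 to 74099400) and are not independent. CXCL1, which encodes a ligand that draws neutrophils, had 3.32, 4.69 and 6.21 in SW480 mock and 9.81, 12.6 and 16.8 in SW480 ERβ, a difference of 1.29 (SE 0.33, adjusted p = 0.000846) with no overlap. CXCL2 (1.25, adjusted p = 0.00122) and CXCL3 (1.01, adjusted p = 0.00871) were also called, whereas CXCL8 had 6.66, 4.75 and 4.57 against 4.58, 9.97 and 6.14 and was not (0.28, adjusted p = 0.438). ICAM1, the adhesion molecule that leukocytes bind, had 3.40, 2.84 and 5.32 against 9.10, 11.996 and 12.5 (1.35, adjusted p = 0.000443). Of the subunits, RELA (0.91, adjusted p = 0.016), NFKB1 (0.92, adjusted p = 0.017) and the second NFKB2 region (0.84, adjusted p = 0.0276) were called, and REL, RELB and the first NFKB2 region were not. CXCL1, CXCL2 and ICAM1 were called in each fit with 1 library left out, with adjusted p of at most 0.0394, 0.0324 and 0.0255, whereas CXCL3, RELA, NFKB1 and NFKB2 were lost in 2, 4, 4 and 5 of those 6 fits. Of the 10 inhibitor regions 1 of those at NFKBIZ was called (0.79, adjusted p = 0.0376), a call lost in 5 of those 6 fits with an adjusted p of up to 0.252, and the inhibitor median was 0.48. The differences of all lists are on the uncentred scale, and none of these list genes was among the 4 regions higher after centring.

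Whether the ERβ effect differed between the lines was tested by the interaction in a fit of the 12 ChIP libraries. The paper reports more of the transduced ERβ in SW480 than in HT29, so equal levels of ERβ were not compared. The median of the SW480 effect minus the HT29 effect was 0.89 over the core regions and 0.87 over all regions. It was called higher in 51 core regions (8.92%) and lower in 0, against 29.5% and 0% of all regions, and 161 core regions had an unadjusted p under 0.05, as had 3029 of all 6238 regions. Core regions were chosen for signal in each condition, so nothing is read from the smaller share. With the replicate block 440 were called, and after centring 0 were, with a median of -0.073 (background 72.2% with the block, and 0.353% higher and 0.0802% lower after centring). Centring with the block, chosen after the data were seen, gave 6 higher and 19 lower, against 175 and 203 of all 6238 regions. On the uncentred scale with no block the count was 296 without HT29 ERβ replicate 1 and 255 without SW480 ERβ replicate 1 (56.1% and 60.8% of all regions). It was 7 to 12 without HT29 mock replicate 1, HT29 ERβ replicate 2 or 3, SW480 mock replicate 1 or 2, or SW480 ERβ replicate 2 or 3 (14.8% to 17.9%). The largest was at ZNF469 (intron, chr16:88388201-88388600), with 10.5, 7.12 and 6.26 in HT29 mock, 8.62, 2.75 and 3.41 in HT29 ERβ, 3.25, 4.68 and 6.24 in SW480 mock and 9.63, 18.5 and 13.6 in SW480 ERβ. Here the SW480 conditions did not overlap and the HT29 conditions did, although HT29 ERβ was below HT29 mock in each of the 3 pairs of the same number. Nothing is read from this order, since ZNF469 was chosen for its large difference of effects. A lower HT29 ERβ value was also common, at 470, 416 and 489 core regions in pairs 1, 2 and 3. The difference of effects was 2.07 (SE 0.56, adjusted p = 0.00443), or 1.11 after centring (adjusted p = 0.0549). In the promoter lists 5 of 35 regions were called, namely RELA (1.35, adjusted p = 0.0494), NFKB1 (1.39, adjusted p = 0.0473), CXCL1 (1.55, adjusted p = 0.0277), CXCL2 (1.39, adjusted p = 0.0459) and ICAM1 (1.67, adjusted p = 0.0188). Without HT29 mock replicate 1 there were 0, without HT29 ERβ replicate 1 there were 19 and without SW480 ERβ replicate 1 there were 15, and each of the 5 was lost in 5 to 9 of the 12 fits with 1 library left out. The differences at these 5 regions stayed between 1.07 and 1.92 over those fits.

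Between the lines themselves, mock cells differed at core regions in both directions. Ranks across the 572 were alike within a line, with a Spearman coefficient of 0.952 between the means of HT29 mock and ERβ and 0.868 between those of SW480, and of 0.424 to 0.438 between lines. These coefficients share the choice of regions and are given as a description. The median difference of SW480 mock from HT29 mock was -0.21 over the core regions and -0.13 over all regions. limma called 29 core regions higher in SW480 (5.07%) and 76 lower (13.3%), against 15.7% and 24.4% of all regions. The groups did not overlap in 46 core regions above and 145 below, with a background of 19.8% and 29.5%. The rule asked for signal in both mock conditions, which favours smaller shares in core regions, so nothing is read from these shares. After centring there were 126 higher and 100 lower (background 29.3% and 23.9%), and the median turned to 0.049. Without HT29 mock replicate 1 there were 109 higher and 73 lower (20.6% and 21.8% of all regions), with a median of 0.056. Without HT29 mock replicate 2 or 3 or any of the SW480 mock libraries there were 13 to 18 higher (10.5% to 14.7%), and without SW480 mock replicate 1, 2 or 3 there were 35, 40 and 46 lower (17.8%, 18.4% and 20.8%). With the replicate block, although numbers did not pair the lines, there were 18 higher and 44 lower (background 13.2% and 19.9%).

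The regions that were higher in SW480 mock were led by one in an exon at -2259 bp from the SECISBP2 start (chr9:89323401-89324000), with 4.62, 1.80 and 2.34 in HT29 mock and 9.97, 11.3 and 11.3 in SW480 mock, a difference of 1.66 (SE 0.36, adjusted p = 3.94e-05). PRDM16 (1.61), CX3CL1 (1.58) and BICC1 (1.55) were among the largest after it. In each of these the 3 SW480 mock libraries were above the 3 HT29 mock libraries.

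The largest difference of all was in the other direction, at an intron of PTK2, the gene of focal adhesion kinase (chr8:140790801-140791200). Its signal was 37.4, 21.8 and 20.4 in HT29 mock, the highest of any core region in each of the 3 libraries, and 2.01, 2.05 and 1.63 in SW480 mock, a difference of -3.20 (SE 0.36, adjusted p = 3.77e-16). ICAM2, with 16.7, 7.77 and 8.86 against 1.02, 2.32 and 2.70, had -1.98 (adjusted p = 7e-07). PELI1, which encodes a ubiquitin ligase of the Toll-like receptor pathway, had 16.2, 9.42 and 10.6 against 2.13, 2.82 and 3.83 (-1.72, adjusted p = 1.86e-05). The lines did not overlap at these regions. Of the 35 list promoter regions 1 was higher in SW480 mock, CYLD (0.87, adjusted p = 0.0359), and 8 were lower, including 4 of the 5 chemokines, against 15.7% and 24.4% of all regions. Without SW480 mock replicate 1 there were 0 higher and 2 lower (14.7% and 17.8% of all regions), and after division by the input density of the surrounding 1 Mb, described next, 0 and 1. CXCL8 had 16.4, 9.40 and 9.47 in HT29 mock and 6.66, 4.75 and 4.57 in SW480 mock (-0.98, adjusted p = 0.0181). The calls of CYLD and CXCL8 were lost in 4 and 2 of the 6 fits with 1 library left out. The chemokine median was -0.92, compared with -0.13 over all regions tested. Over the 14 core regions of chromosome 4, where CXCL1, CXCL2, CXCL3 and CXCL8 lie, the median was -0.56. The median log2 input ratio over 1 Mb was -0.28 there.

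The density of input DNA differed between the lines over long stretches and moved with these differences. Over the 1 Mb around each core region, the log2 ratio of the SW480 mock to the HT29 mock input ranged from -1.96 to 1.64, and its Spearman coefficient with the p65 difference was 0.437 over the 572 regions, which share the 2 input libraries. The coefficient was -0.034 and 0.016 for the ERβ differences within HT29 and SW480. In 44 regions where the SW480 input was lower by more than 0.5 on the log2 scale, 0 were called higher and 19 lower, with a median of -0.71. In 435 regions within 0.5 there were 14 and 55, with a median of -0.25. In 93 regions where it was higher by more than 0.5 there were 15 and 2, with a median of 0.22. Over all bound regions the called shares were taken only without regard to input (15.7% and 24.4%). Whether this order is particular to core regions was therefore not tested. When signal was divided by the input density of the surrounding 1 Mb, the medians of these 3 sets were -0.16, -0.30 and -0.49, the reverse order. After this division 15 core regions were higher and 67 lower, with a background of 11.8% and 25.1%. The same division left 204 core regions higher and 0 lower with ERβ in SW480, against 51.2% and 0.0321% of all regions.

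Chromosome 8 held regions that moved with the input and regions that did not. PTK2, KCNK9, MAL2 and CYRIB lie on its long arm, where the input density over 1 Mb was 1.17, 0.985, 1.16 and 1.13 in HT29 mock but 0.373, 0.358, 0.296 and 0.334 in SW480 mock. Their p65 differences were -3.20, -1.90, -1.87 and -1.64, all called. After division by the input they were -1.60 (adjusted p = 0.000109), -0.58 (adjusted p = 0.20), -0.20 (adjusted p = 0.689) and -0.19 (adjusted p = 0.701), so that only PTK2 among them was still called. At the region named for MYC the input had a density of 1.12 for HT29 mock but 2.16 for SW480 mock, and the difference of 0.73 (adjusted p = 0.061) became -0.09. SARAF, with input of 0.145 and 0.369, went from 1.32 (adjusted p = 0.00112) to 0.33. PLEC, also on the long arm, went the other way, with a higher input in SW480 mock (0.304 against 0.227) and a lower p65 signal (-1.06, adjusted p = 0.00944), which became -1.42 after division. RP1 was lower (-0.88, adjusted p = 0.0288) at inputs of 0.306 and 0.292, and had -0.83 after division, which was no longer called (adjusted p = 0.056). ICAM2, PELI1 and SECISBP2 kept differences of -2.31, -1.52 and 1.59 and were still called.

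**Figure D5:**
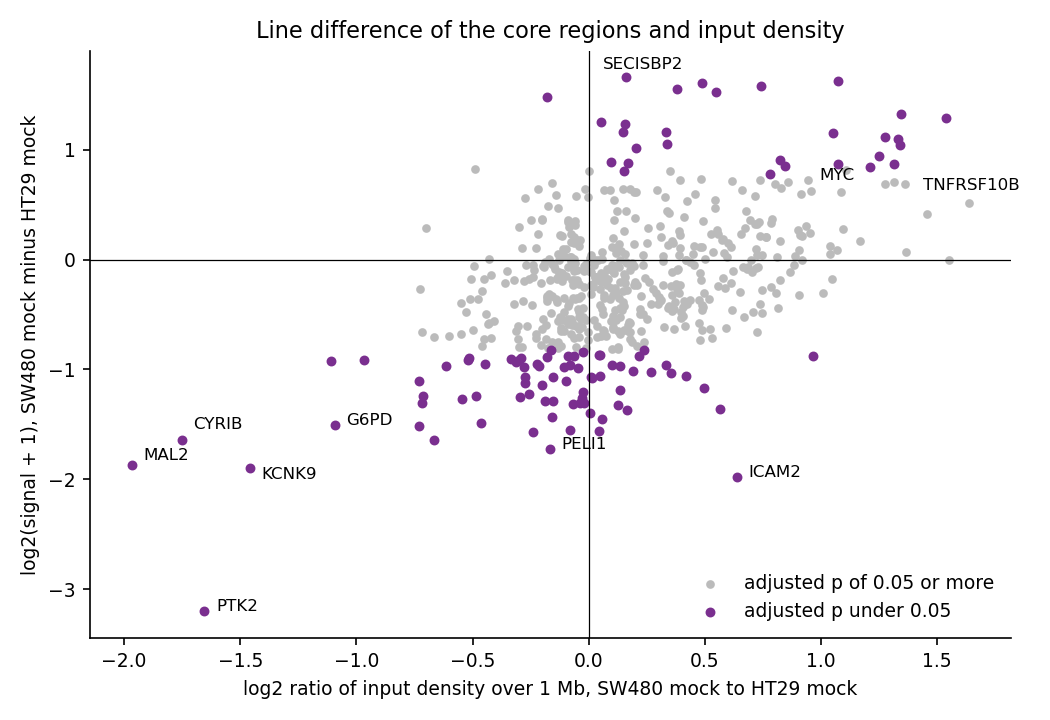
Difference in log2(signal + 1) between SW480 mock and HT29 mock at the 572 core regions against the log2 ratio of input density over the surrounding 1 Mb, with regions past an adjusted p of 0.05 in purple. The points rise from left to right (Spearman coefficient 0.437), with PTK2 at -3.20 and KCNK9, MAL2 and CYRIB of chromosome 8 at the lower left, and ICAM2 and PELI1 far below 0 without a low input ratio.

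The core regions with the smallest differences between condition means were chosen for that and are a description. Over the 572 the range between the highest and the lowest condition mean on the log2 scale had a median of 0.93 and reached 3.20. It was smallest at PHLDA2 (0.14), NEDD4 (0.17), PTPN2 (0.18), DIRAS2 (0.27) and LHFPL2 (0.29). NEDD4, between genes and 28th by signal, had 19.3, 9.64 and 11.6 in HT29 mock, 16.9, 11.7 and 8.68 in HT29 ERβ, 14.2, 11.97 and 8.66 in SW480 mock and 8.18, 18.7 and 11.6 in SW480 ERβ. Its libraries spread as widely within a condition as between conditions. PTPN2, a phosphatase gene that restrains cytokine signalling, had condition means of 6.65 ± 3.18, 5.54 ± 1.71, 5.396 ± 0.231 and 6.24 ± 3.51 (SD, n = 3) at its promoter in the same order. It was 1 of the 22 that were lower in SW480 ERβ after centring (-0.74), so its small range holds on the uncentred scale.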

How the data were processed

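p65 ChIP-Seq libraries (12) and inputs (4) were analysed. Reads had been mapped by the authors with STAR (GRCh38, unique hits only). The deposited signal is HOMER's coverage as scaled tag density, with 0.05 as its lowest listed value. Depth could not be recovered, so no count test was run. Core regions and gene lists were chosen with earlier results of these data known. In bins of 200 bp, the input had a floor of 0.35. Log2(signal + 1) in the highest bin was fitted by limma 3.58.1 (trend; R 4.3.3) over all 6238 regions, within each line for ERβ against mock, over 12 libraries for the interaction and over 6 mock libraries for the line difference, with Benjamini-Hochberg adjustment at 0.05. Named regions were the 12 highest, the 8 highest outside promoters, the 5 largest called differences per comparison and direction, the 5 smallest spreads, and listed genes. Deviations of libraries of the same number correlated at 0.585, 0.234 and 0.278 in HT29 and 0.309, 0.134 and 0.233 in SW480. All were above 0.1, so numbers were taken to pair libraries within a line, but only in the fits with a replicate block. Counts and p-values given without mention of a block came from unpaired fits. HT29 mock 2 with ERβ 3 (0.273) and mock 3 with ERβ 2 (0.177) were also above 0.1, so pairs 2 and 3 are not singled out there. Across lines numbers did not pair libraries (-0.060, -0.077 and 0.002). Motifs were exact matches on both strands, genes came from GENCODE 44, and promoters for comparison from RefSeq on GRCh38. Intervals are Clopper-Pearson. Python 3.11.15, scipy 1.17.1 and pysam 0.24.0 were used. The fit was also run on simulated data with independent noise and no shifts of whole libraries. That run therefore says nothing on calls that such shifts move. Scaling, bin, pseudocount, input, filter, block and left-out libraries were varied. Some items covered by the naming rule are not reported here.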

Additional observations from a re-analysis of the deposited data

Results flagged for a closer look

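The ERβ effect was larger in SW480 than in HT29 at 51 core regions (8.92%) by the interaction term of limma, against 29.5% of all regions. The count was 7 to 296 with 1 library left out and 440 with the replicate block. After centring it was 0 of 572, and the median over the core regions went from 0.89 to -0.073. Nothing is read from the share of 8.92%, since core regions were chosen for signal in each condition. The 5 largest were ZNF469 (2.07), OSBPL5 (1.85), ADARB1 (1.85), PPARA (1.83) and GPR37L1 (1.79), each a difference of log2 effects, with adjusted p of 0.00443, 0.00725, 0.00933, 0.0117 and 0.0115. At ADARB1 (intron, chr21:45104601-45105000) the signal was 8.55, 4.71 and 4.78 in HT29 mock, 6.90, 3.33 and 2.49 in HT29 ERβ, 2.28, 2.63 and 3.25 in SW480 mock and 5.80, 12.4 and 8.81 in SW480 ERβ, so that the SW480 conditions did not overlap and the HT29 conditions did. Within pairs of the same number HT29 ERβ was lower in 3 of 3. At GPR37L1 (chr1:202118601-202119000) it was 8.74, 3.57 and 5.27, then 5.49, 2.83 and 3.78, then 2.55, 2.84 and 3.82, and then 7.12, 9.94 and 11.9 in the same order, with the same overlap and HT29 ERβ again lower in 3 of 3 pairs. A lower HT29 ERβ value was common, at 470, 416 and 489 of the 572 core regions in pairs 1, 2 and 3. These 5 regions were also chosen for a large difference of effects, which favours low HT29 ERβ values. Nothing is therefore read from the order within pairs. After centring the differences were 1.11, 0.89, 0.88, 0.87 and 0.83, with adjusted p of 0.0549, 0.125, 0.123, 0.186 and 0.156, so none of the 5 stayed past the threshold on that scale. PPARA also missed it without HT29 ERβ replicate 3 or SW480 mock replicate 1, and GPR37L1 without HT29 ERβ replicate 2 or SW480 ERβ replicate 3. The median of all regions moved alike (0.87), and the part of the libraries' overall height in these 51 was not tested beyond the centring. No group had the 4 libraries needed for a check of single outlying values.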

How the results depend on the processing

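Of 142 recomputed summary values outside the left-out libraries, 112 were classed as the same, 24 as moved and 6 as reversed. With a library left out, 77 of 102 were the same and 2 were reversed. Counts were the same within 1.5-fold or when both were 0, and medians within the SD of the library medians. A named region was the same when its sign held with an adjusted p under 0.05, whatever its size, in 206 of 215 cases. The number of core regions was 327 with all 3 tracks required and 284 with a 6-fold excess over input, 714 with the input of the other ERβ status of the same line, and 435 to 571 without a library. In the last case each remaining library of that condition had to pass. The κB share was 83.7% over the whole region and 43.2% in the central 100 bp, and the promoter share 34.8% with protein-coding genes only and 48.6% within 1 kb to either side. Centring each library gave 0 calls in HT29 (median -0.047), 4 higher and 22 lower for ERβ in SW480 (median -0.13), 0 for the interaction (-0.073) and 126 higher and 100 lower for the line difference (0.049), against 29.3% and 23.9% of all regions. The replicate block gave 350 and 440 higher for SW480 and the interaction (68.4% and 72.2% of all regions), 18 higher and 44 lower for the line difference (13.2% and 19.9%), and changed no call in HT29. Chosen after seeing the data, centring with the block gave 28 higher and 70 lower (-0.13), 6 and 19 (-0.073), and 128 higher and 100 lower (0.049) in these comparisons, and division by the 1-Mb input gave 15 higher and 67 lower for the line difference. Over all 6238 regions these were 458 and 636, 175 and 203, 1759 and 1472, and 734 and 1564. With all 12 libraries in 1 fit 130 core regions were higher in SW480 ERβ, as were 47.7% of all regions. The interaction gave 116 with input subtracted, 14 over regions bound in 2 or more conditions and 94 without the trend, where 3162 of 6238, 172 of 2497 and 1482 of 6238 of all regions were called. Left-out libraries gave 56 to 523 higher for SW480, 7 to 296 for the interaction, and 13 to 109 higher and 35 to 90 lower for the line difference, where 24.2% to 86.9%, 14.8% to 60.8%, 10.5% to 20.6% and 17.8% to 25.7% of all regions were called. Their medians ranged from -0.49 to 0.048 for HT29, 0.47 to 0.92 for SW480, 0.63 to 1.16 for the interaction and -0.38 to 0.056 for the line difference. The cause of these shifts was not tested, and the left-out fits also rest on fewer libraries. Scaled tracks limit what can be said of total binding, and a region that was not called can hold binding.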

Other observations

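After centring, 22 core regions were lower in SW480 ERβ (3.85%), against 4.81% of all 6238 regions, a share that was not taken by chromosome. These 22 included 6 on chromosome 12, which holds 35 of the core regions. They were NAV3 (-1.03, adjusted p = 0.00891), TPCN1 (-0.99, adjusted p = 0.00883), FBXO21 (-0.91, adjusted p = 0.0116), TMEM132C (-0.82, adjusted p = 0.0295), EPS8 (-0.74, adjusted p = 0.0363) and SMIM41 (-0.61, adjusted p = 0.0302). The region of NAV3 had 6.28, 5.82 and 4.58 in SW480 mock and 2.16, 8.21 and 4.66 in SW480 ERβ before centring, and these overlap. The median centred difference on chromosome 12 was -0.23, compared with -0.13 over all core regions. It was lower still on chromosomes 13 (-0.36), X (-0.32), 18 (-0.28) and 10 (-0.28), which had 0, 0, 1 and 2 such regions, so that this median is not particular to chromosome 12. The median log2 ratio of the ERβ to the mock input over 1 Mb was -0.090 on chromosome 12 and -0.11 over all core regions. This grouping was noticed after the values were seen and has no test.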
